A study of Mus musculus with 8 samples.

Results

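The 6 myosin light chain genes Myl1, Mylpf, Myl2, Myl3, Myl4 and Myl6b and the kinase genes Mylk2 and Mylk4 were followed in the immobilized hindlimb muscle of 8 mice. They are 8 of the 55487 genes in the deposited values and were chosen by name, with earlier results of these data known. Of them, 8 of 8 passed the filter of a mean of at least 10 counts. All 8 animals were male C57BL/6J mice aged 10 weeks whose hindlimbs were held in casts for 8 days while they received K14Q MOTS-c. MOTS-c is a short peptide encoded in the mitochondrial 12S rRNA gene, and K14Q MOTS-c is its naturally occurring form with glutamine in place of lysine at position 14. It was injected intraperitoneally 2 times a day, for a dose of 15 mg/kg/day. Every mouse shared the strain, sex, casting and peptide, so the data hold differences between mice and no contrast between treatments, and mobile, WT MOTS-c-treated and vehicle-treated mice were not analysed here. The sample labels name the vastus lateralis, whereas the study's methods name the gastrocnemius for this experiment. Both are hindlimb muscles, and the values do not settle which was sampled.

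Myosin is the motor of the thick filament, and each of its heads carries an essential light chain, which stiffens the lever arm, and a regulatory light chain, which can be phosphorylated. Fast fibres use the products of Myl1 (essential) and Mylpf (regulatory), slow fibres and heart ventricle those of Myl3 (essential) and Myl2 (regulatory), and Myl4 encodes the essential chain of the atrium and of embryonic skeletal muscle. The regulatory chain is phosphorylated by calcium- and calmodulin-dependent kinases, of which Mylk2 encodes the classical skeletal muscle form, and the phosphate is removed by myosin phosphatase. Phosphorylation of this chain increases the force of a twitch after repeated stimulation.

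The libraries held 23985356 to 33012497 counts, and the 8 genes took 0.537% to 0.858% of them. The skeletal fibre markers Ckm, Acta1, Actn3, Mb and Tnnt3 summed to between 676208 and 1177200 normalized counts, whereas of 5 heart muscle markers 1 passed the filter (Myh6) and Myl7 and Nppb were at 0 in every library. A check for a library deposited more than once found none, as the 28 pairs gave a chi-square of 15.0 to 110 per degree of freedom, which says no more than that. The share of counts taken by the 10 most abundant genes was lowest in mice 3 and 4 (18.8% and 19.6%) and highest in mouse 1 (26.2%). By mean over the mice, the 10 highest were Myh4, Atp2a1, Ttn, Neb, the mitochondrial genes mt-Co1, mt-Atp6, mt-Nd4 and mt-Cytb, and Gm10925 and Gm29216. None of the 8 genes was among them.

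The count of Myl1 has a near-identical partner. Myl1 lies on chromosome 1 at 66924295-66945404 on the minus strand (GRCm38, ENSMUSG00000061816), and its processed pseudogene Mylf-ps lies on chromosome 12 at 101221997-101222417, also on the minus strand. The whole pseudogene of 421 bp aligned to positions 143 to 563 of the 564 bp Myl1 coding sequence in 1 block with 3 mismatches, an identity of 99.3%. The first 120 bases of the pseudogene are shown beside the matching Myl1 bases because reads from such a stretch can be counted on either gene, and capitals mark the only position at which the stretches differ. The Myl1 stretch covers chr1:66930210-66930329 and that of Mylf-ps covers chr12:101222298-101222417, each read on the minus strand.
Myl1: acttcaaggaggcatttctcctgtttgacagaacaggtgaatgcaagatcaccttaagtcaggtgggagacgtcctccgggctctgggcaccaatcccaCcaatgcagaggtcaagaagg
Mylf-ps: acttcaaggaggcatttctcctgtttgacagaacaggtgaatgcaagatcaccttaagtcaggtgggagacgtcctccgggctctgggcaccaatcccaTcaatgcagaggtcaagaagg
Of the 2067 different runs of 50 bases in the Myl1 exons, 242 (11.7%) also occur in Mylf-ps. Mylf-ps had 10870, 18277 and 22651 normalized counts in the lowest, median and highest mouse, and took 17.5% to 18.7% of the sum of both genes in every mouse. Its level followed that of Myl1 with r = 0.995, the highest r with Myl1 among genes averaging 50 normalized counts or more. Transcripts of the pseudogene and Myl1 reads placed on it cannot be told apart here.

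**Figure D1:**
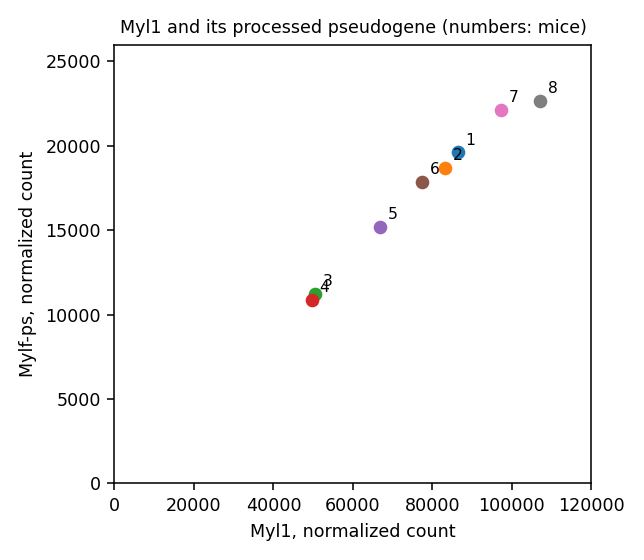
Normalized count of the processed pseudogene Mylf-ps (y axis) against that of Myl1 (x axis), 1 numbered point per mouse. The points lie close to 1 line through the range of 49676 to 106979 for Myl1, with mice 3 and 4 at the low end and mouse 8 at the high end.

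The upstream sequences of the fast pair are shown because Myl1 and Mylpf were the most abundant members and had the highest r of any pair between the mice. These are the 250 bases before the RefSeq start (GRCm38.p6), which for both genes, and for Myl3, lies inside the wider GENCODE gene span, at chr1:66945057-66945306 on the minus strand for Myl1 and at chr7:127211358-127211607 on the plus strand for Mylpf. Capitals mark the E-box, CANNTG, the motif that myogenic regulatory factors such as MyoD bind.
Myl1: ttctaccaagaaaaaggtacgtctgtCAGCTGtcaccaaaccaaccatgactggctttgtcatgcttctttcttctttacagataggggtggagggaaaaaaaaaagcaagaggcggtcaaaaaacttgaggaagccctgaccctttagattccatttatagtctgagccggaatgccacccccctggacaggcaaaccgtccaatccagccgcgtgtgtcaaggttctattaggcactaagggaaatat
Mylpf: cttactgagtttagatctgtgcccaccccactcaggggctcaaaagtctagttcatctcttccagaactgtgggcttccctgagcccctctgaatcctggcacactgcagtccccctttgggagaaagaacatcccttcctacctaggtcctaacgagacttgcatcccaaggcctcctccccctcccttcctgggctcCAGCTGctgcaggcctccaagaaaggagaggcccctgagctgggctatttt
Each window held 1 E-box, with the letters CAGCTG, which read the same on both strands. The windows of Myl3 and Myl6b also held 1, that of Mylk4 held 3, that of Myl4 held 0 and those of the 2 starts listed for Myl2, which lie before its GENCODE start, held 1 and 2, while 66.2% of all 32851 RefSeq promoter windows of this length held at least 1. The MEF2 motif was in none of these windows and in 0.508% of all windows, and the CArG box was in that of Myl3 and in 1.47% of all windows. Both were searched with their A or T positions free, on either strand.

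The fast light chains were the most abundant of the 8 genes. Mylpf (ENSMUSG00000030672, chr7:127208890-127214298, plus strand), the fast regulatory chain, had 48912 normalized counts in its lowest mouse, a median of 70002 and 83359 in its highest mouse. Mice 3 (48912) and 4 (51530) were the lowest, and mice 8 (83359) and 1 (77866) were the highest. Myl1, the fast essential chain, had 49676, 80325 and 106979 normalized counts in the lowest, median and highest mouse. Mice 4 and 3 again lay below all others, at 49676 and 50440, with the next mouse at 66729. The mean of Myl1 was 77264 ± 20676 and that of Mylpf 67307 ± 12082 (SD, n = 8), so the coefficient of variation (CV) of Myl1 was 26.8% and that of Mylpf 17.9%, with jackknife standard errors of 6.17 and 4.50 percentage points. The gene counts do not separate the long and short Myl1 chains, which arise from different start sites.

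The slow light chains were far lower. Myl2 (ENSMUSG00000013936, chr5:122100951-122113472, plus strand), the slow regulatory chain, ran from 675 normalized counts in mouse 4 through a median of 1228 to 2119 in mouse 1. Mouse 5 (1938) was close to mouse 1, and the other 6 mice lay at or below 1417. Myl3 (ENSMUSG00000059741, chr9:110741861-110769798, plus strand), the slow essential chain, ran from 618 in mouse 3 through a median of 1003 to 1472 in mouse 1, with mice 8 (1434) and 5 (1207) next. The means were 1319 ± 497 for Myl2 and 1025 ± 333 for Myl3 (SD, n = 8), and their CVs of 37.7% and 32.5%, with jackknife standard errors of 7.88 and 5.34 percentage points, were above those of 91.5% and 86.7% of the 16498 genes past the filter. The median CV over those genes was 16.5%. Exons of Myl2 overlap those of Ccdc63 by 60 bp and exons of Myl3 overlap those of Pth1r by 95 bp, on opposite strands, and use of strand in counting is not given in the sources used here. The overlapping genes were low, with at most 4.32 normalized counts for Ccdc63 and 18.3 for Pth1r in any mouse.

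Myl4 and Myl6b had the lowest levels. Myl4 (ENSMUSG00000061086, chr11:104550663-104595753, plus strand) had 262, 370 and 490 normalized counts in the lowest, median and highest mouse. Its order of mice differed from that of the fast chains, since mouse 4 (488) and mouse 6 (490) were the highest and mice 3 (262) and 2 (267) the lowest. Myl6b (ENSMUSG00000039824, chr10:128494157-128498685, minus strand), an essential chain of slow and nonmuscle myosin, had 59.8 normalized counts in mouse 3, a median of 90.8 and 109 in mouse 6. Of its runs of 50 bases, 0.476% also occur in each of 3 processed pseudogenes, Gm8894, Gm5915 and Gm5526, whose medians were 266, 90.2 and 443 normalized counts, while none of those of Mylpf or Mylk2 occur in another gene. Myl6b rested on 65 to 111 reads per library, so counting error alone gives a CV of 10.7% against the 18.6% observed. Counting error stayed at or below 5.21% for the other 7 genes.

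The kinase genes differed in their spread between mice. Mylk2 (ENSMUSG00000027470, chr2:152911352-152923068, plus strand), the skeletal muscle myosin light chain kinase, had 18427, 20709 and 29166 normalized counts in the lowest, median and highest mouse. Mice 1 (29166) and 5 (25873) stood above the other 6, which lay between 18427 and 21346. Mylk4 (ENSMUSG00000044951, chr13:32700834-32783954, minus strand), a related kinase gene expressed in striated muscle, had 19821 in mouse 4, a median of 39370 and 65963 in mouse 2. Its highest mouse was 3.33 times its lowest, against 1.58 times for Mylk2. The CV was 41.3% for Mylk4, above that of 93.9% of genes, and 17.1% for Mylk2, above that of 52.7%. The ratio of Mylk4 to Mylk2 counts went from 1.06 in mouse 4 and 1.07 in mouse 3 to 2.68 in mouse 7 and 3.25 in mouse 2.

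**Figure D2:**
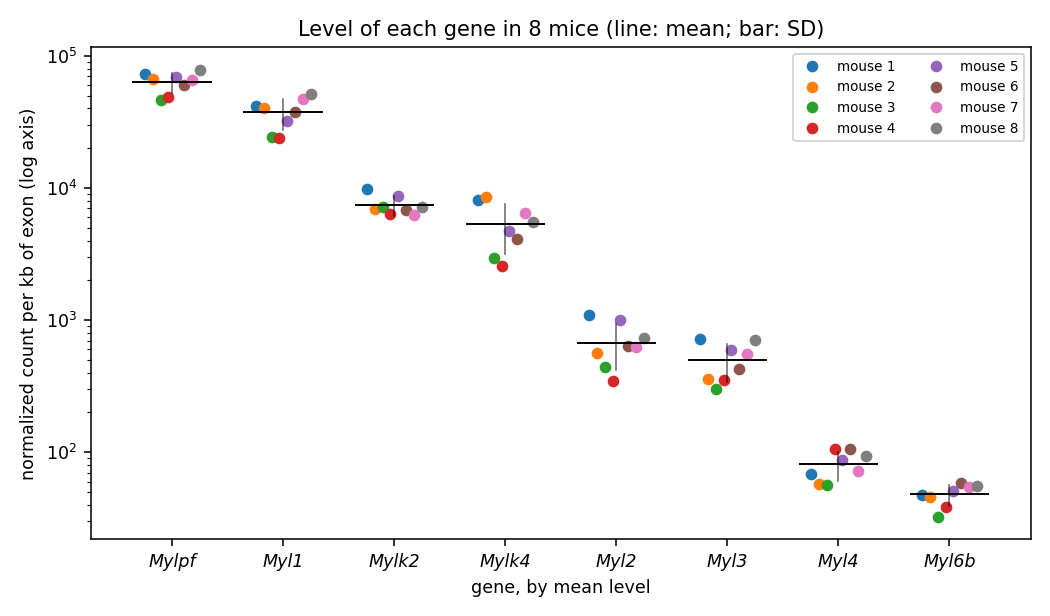
Normalized count per kb of exon (log axis) of each of the 8 genes, ordered by mean level, with 1 point per mouse, the mean as a line and the SD as a bar. Mylpf and Myl1 lie highest, the kinases next, and Myl4 and Myl6b lowest, and mice 3 and 4 are the lowest points for Mylpf, Myl1 and Mylk4.

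To compare levels between genes, counts were divided by the length of the merged exons in GENCODE release M21, and neighbours in the order were compared within each mouse by the log2 difference, with an exact two-sided sign-flip permutation test whose smallest p is 0.0078. Per kb, the mean level was 63378 ± 11376 for Mylpf, 37253 ± 9969 for Myl1, 7410 ± 1267 for Mylk2, 5374.5 ± 2218 for Mylk4, 676 ± 255 for Myl2, 501 ± 163 for Myl3, 80.8 ± 20.0 for Myl4 and 48.0 ± 8.94 for Myl6b (normalized counts per kb, SD, n = 8). Mylpf exceeded Myl1 by 0.79 ± 0.21 on the log2 scale (SD over mice), higher in 8 of 8 mice (exact p = 0.0078, unadjusted over 7 comparisons), and by 0.50 when the Mylf-ps counts were added to Myl1. The difference was 0.33 with the length of the longest transcript (exact p = 0.0078), and 0.035 (exact p = 0.65) with that length and the Mylf-ps counts added together. Myl1 exceeded Mylk2 by 2.30, Mylk4 exceeded Myl2 by 2.97, Myl3 exceeded Myl4 by 2.60 and Myl4 exceeded Myl6b by 0.74, each on the log2 scale and in 8 of 8 mice with the same exact p. With the longest transcripts, Myl1 over Mylk2 was 3.24 and Mylk4 over Myl2 was 2.30, with the same exact p. Myl2 exceeded Myl3 by 0.41 ± 0.30 in 7 of 8 mice (exact p = 0.016). Mylk2 and Mylk4 could not be ordered with confidence. Mylk2 was higher per kb by 0.56 ± 0.59 in 6 of 8 mice (exact p = 0.047), but the difference was 0.10 (exact p = 0.64) with the longest transcripts, and the exact p was 0.0625 to 0.094 when any of mice 1, 3, 4, 5, 6 or 8 was left out.

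The slow share of each light chain pair was small in every mouse. Myl2 took 1.88% ± 0.484 (SD, n = 8) of the reads of the regulatory pair Myl2 and Mylpf, and Myl3 took 1.32% ± 0.300 of the essential pair Myl1 and Myl3. The Myl2 share was highest in mice 1 (2.65%, 95% Wilson interval 2.54% to 2.77%) and 5 (2.58%, 2.47% to 2.69%) and lowest in mouse 4 (1.29%, 1.20% to 1.40%). The Myl3 share was also highest in mice 5 (1.78%, 1.68% to 1.87%) and 1 (1.68%, 1.59% to 1.76%), but was lowest in mouse 2 (0.877%, 0.814% to 0.945%). These intervals cover counting error only. Mouse 2 was lowest as well for the share of Myh7, the slow heavy chain, among Myh1, Myh2, Myh4 and Myh7 (0.198%, against a mean of 0.344% ± 0.0754) and for the share of the slow troponin I gene Tnni1 in the sum of Tnni1 and the fast gene Tnni2 (0.282%, against 0.449% ± 0.141). Mouse 4, lowest for the Myl2 share, was at 0.382% for Myh7 and thus above the mean, so the slow shares of the light and heavy chains did not give the mice in the same order. In a bulk sample, fewer slow fibres and less of a slow RNA per fibre cannot be told apart. Per kb of exon the mean shares were 1.03% for Myl2, 0.245% for Myh7 and 0.187% for Tnni1.

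**Figure D3:**
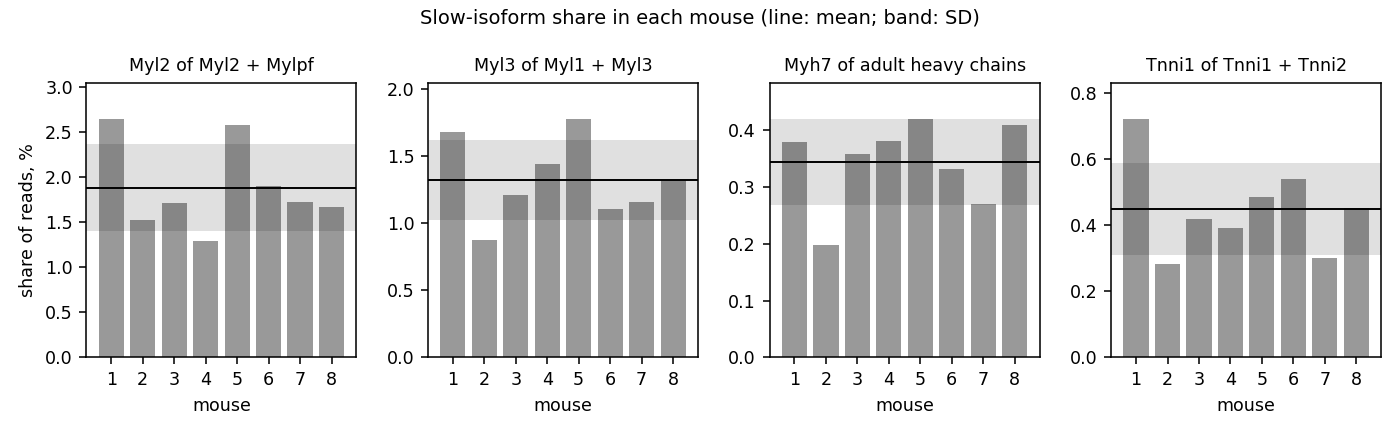
Share of reads, in %, taken by the slow gene of each pair or group, 1 bar per mouse, with the mean over mice as a line and the SD as a band. Mice 1 and 5 have the tallest bars for Myl2 and Myl3, and mouse 2 has the shortest bar in every panel but that of Myl2.

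Whether the 8 genes varied together between mice was asked with Pearson's r of log2(normalized count + 1) and an exact two-sided permutation test over every pairing of the 8 mice. Adjustment was by the Benjamini-Hochberg method over 131976 relations, those of each of the 8 genes with every gene tested. None of the 28 pairs passed an adjusted p of 0.05, and of all 131976 relations 0 (0%) did, with a smallest adjusted p of 0.332. With 8 mice the exact p cannot go below 2.48e-05, so any call over 131976 relations needs many relations at or near that floor. The 0 calls are therefore no evidence that relations are absent. At an unadjusted p under 0.05 there were 10368 relations, and limma, which fits a moderated slope to each gene, called 51. The r values below are therefore descriptions of 8 mice.

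At the unadjusted threshold 10 of the 28 pairs lay past it, each with r above 0. Mylpf was in 5 of its 7 pairs, with Myl3 at r = 0.87 (exact p = 0.0039, rho = 0.90, exact p = 0.0046), Myl1 at 0.88 (exact p = 0.0064), Myl2 at 0.82 (exact p = 0.014), Mylk4 at 0.81 (exact p = 0.016) and Myl6b at 0.77 (exact p = 0.028), where 4.87% of all genes had such a relation with Mylpf. Myl1 was in 4 of 7, since its r was also 0.81 with Myl6b (exact p = 0.016), 0.81 with Mylk4 (exact p = 0.018) and 0.73 with Myl3 (exact p = 0.0495), against 8.07% of all genes. The slow chains Myl2 and Myl3 had an r of 0.84 (exact p = 0.0081) and a rho of 0.93 (exact p = 0.0022). The corresponding shares of all genes were 2.90% for Myl2 and 3.24% for Myl3. The remaining pair past the threshold was Myl2 with Mylk2 (r = 0.79, exact p = 0.020, rho = 0.62), the only such pair of the 7 of Mylk2, against 1.55% of all genes. Mylk2 and Mylk4 had an r of 0.35 (exact p = 0.39), which was 0.020 without mouse 1 and 0.51 without mouse 2. For Myl4 the r with the other 7 genes ran from -0.42 to 0.46, and 0 of 7 lay past the threshold against 0.873% of all genes. Single mice moved these values. The r of Myl4 with Mylk4 was -0.89 without mouse 3 and -0.19 without mouse 4, and that with Myl6b was 0.12 and 0.80. Mylk4 and Myl6b were each in 2 of their 7 pairs, both with the fast chains, against 6.00% and 3.59% of all genes. By rank, rho over the 10 pairs ran from 0.48 to 0.93, and 5 of them had an exact p under the threshold, with Myl1 and Mylpf at 0.74 (exact p = 0.046), Myl1 and Mylk4 at 0.74 (exact p = 0.046) and Mylpf and Myl2 at 0.81 (exact p = 0.022) besides the pairs above.

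Much of the relation among the fast genes rested on mice 3 and 4. Without these mice, the farthest from the median of Myl1 and of Mylpf, r was 0.48 for Myl1 with Mylpf, 0.33 for Myl1 with Mylk4, 0.23 for Myl1 with Myl6b and -0.25 for Mylpf with Myl6b. It was 0.32 for Mylpf with Mylk4, 0.34 for Myl1 with Myl3, 0.49 for Mylpf with Myl2 and 0.76 for Mylpf with Myl3. The slow pair had an r of 0.80 and Myl2 with Mylk2 an r of 0.61 without mice 1 and 4, the farthest from the median of Myl2. Leaving out mouse 3 alone or mouse 4 alone left 6 of 28 pairs past the unadjusted threshold, and scaling to library totals in place of the authors' size factors left 4. The share of counts in the 10 most abundant genes varied with Mylk4 (r = 0.94, exact p = 0.0012, rho = 0.88, exact p = 0.0072, and r = 0.93 without the 2 farthest mice), Myl1 (r = 0.81, exact p = 0.017) and Mylpf (r = 0.76, exact p = 0.031), of 24 such relations with library measures. Its part in the relations was not tested.

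**Figure D4:**
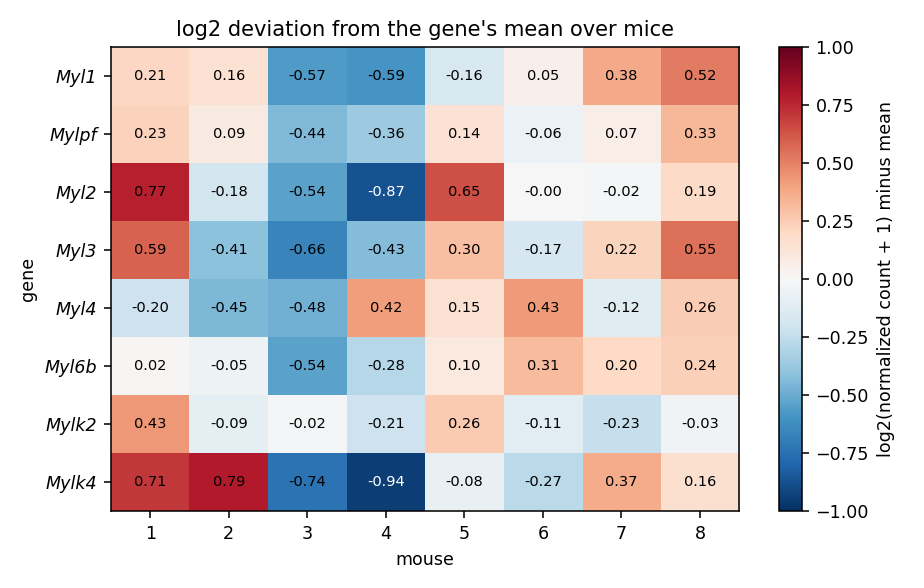
Deviation of log2(normalized count + 1) from the gene's mean over the 8 mice (colour and printed value), with genes in rows and mice in columns. Mice 3 and 4 are below the mean for Myl1, Mylpf, Myl2, Myl3, Myl6b, Mylk2 and Mylk4, while Myl4 is above its mean in mouse 4 and below it in mouse 3.

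The light chains were next set beside the heavy chain genes, which encode the motor itself. The count of heavy chain genes with r above 0 at an unadjusted exact p under 0.05 was 8 of 8 for Mylpf, 5 of 8 for Myl2, 5 of 8 for Myl3, 4 of 8 for Myl1, 4 of 8 for Mylk4, 3 of 8 for Myl6b, and 0 of 8 for Myl4 and Mylk2. Each of these shares is to be read against 0.873% to 8.07% of all genes, the range over the 8 genes. Myl3 followed Myh7 at r = 0.91 (exact p = 0.0028) and Myh6, the alpha-cardiac heavy chain gene, at 0.96 (exact p = 0.00025, adjusted p = 0.33, limma adjusted p = 0.033), and Myl2 followed Myh7 at 0.86 (exact p = 0.0070). Of the runs of 50 bases in Myh7, 15.6% also occur in Myh6. Myh6 followed Myh7 at r = 0.976 and took 14.6% to 17.8% of the sum of both genes. Whether reads from the shared runs were counted on either gene was not tested. Mylk4 followed Myh4, the heavy chain of the fastest fibres, at r = 0.92 (exact p = 0.0019), and the developmental heavy chain gene Myh8 at 0.90 (exact p = 0.0031). Myh8 and Myh4 both lie on chromosome 11, and both were highest in mouse 1 and lowest in mouse 3. In these mice Myh8 had 142980 and 60704 normalized counts and Myh4 had 2063670 and 839797. Whether reads of Myh4 were counted on Myh8 was not tested. Myl6b was closest to the embryonic heavy chain gene Myh3 (r = 0.87, exact p = 0.0042). Spearman's coefficient was 0.95 for Myl3 with Myh7 and with Myh6 (exact p = 0.0011 each), 0.90 for Myl2 with Myh7 (exact p = 0.0046), 0.88 for Mylk4 with Myh4 (exact p = 0.0072) and 0.79 for Myl6b with Myh3 (exact p = 0.028). Without the 2 farthest mice r was 0.84, 0.92, 0.86, 0.80 and 0.54 in the same order.

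The listed fast fibre genes of the thin filament, the Z-disc and calcium handling were Tnni2, Tnnt3, Tnnc2, Atp2a1, Casq1, Actn3 and Pvalb. All 7 lay past the unadjusted threshold with r above 0 for Myl1, Mylpf and Mylk4, against 8.07%, 4.87% and 6.00% of all genes. Their median r was 0.96 with Myl1, 0.89 with Mylpf and 0.83 with Mylk4, whereas the median over all genes was -0.06, -0.05 and -0.02. With Myl1, Casq1, the calcium store protein of fast fibres, had an r of 0.99 (exact p = 7.4e-05, 0.96 without mice 3 and 4) and Pvalb, the calcium buffer parvalbumin, 0.97 (exact p = 9.9e-05, 0.98 without those mice), with rho of 0.98 (exact p = 0.00040) and 0.95 (exact p = 0.0011). Both adjusted p-values were 0.33 by the exact test, and limma gave adjusted p-values of 0.0021 and 0.018. For Myl2, Myl3, Myl6b, Mylk2 and Myl4 the count was 1, 2, 4, 0 and 0 of 7, against 2.90%, 3.24%, 3.59%, 1.55% and 0.873% of all genes, and the same shares apply to the slow genes. The slow counterparts (Tnni1, Tnnt1, Tnnc1, Tpm3, Atp2a2 and Casq2) gave 4 of 6 for Myl2 (median r 0.77), 4 of 6 for Myl3 (0.83), 4 of 6 for Mylpf (0.76), 2 of 6 for Mylk2, 1 of 6 for Myl1 and 0 of 6 for Myl4, Myl6b and Mylk4. Casq2, the slow calsequestrin, followed Myl2 at 0.84 (exact p = 0.011) and Tnnc1, slow troponin C, followed Myl3 at 0.90 (exact p = 0.0062).

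**Figure D5:**
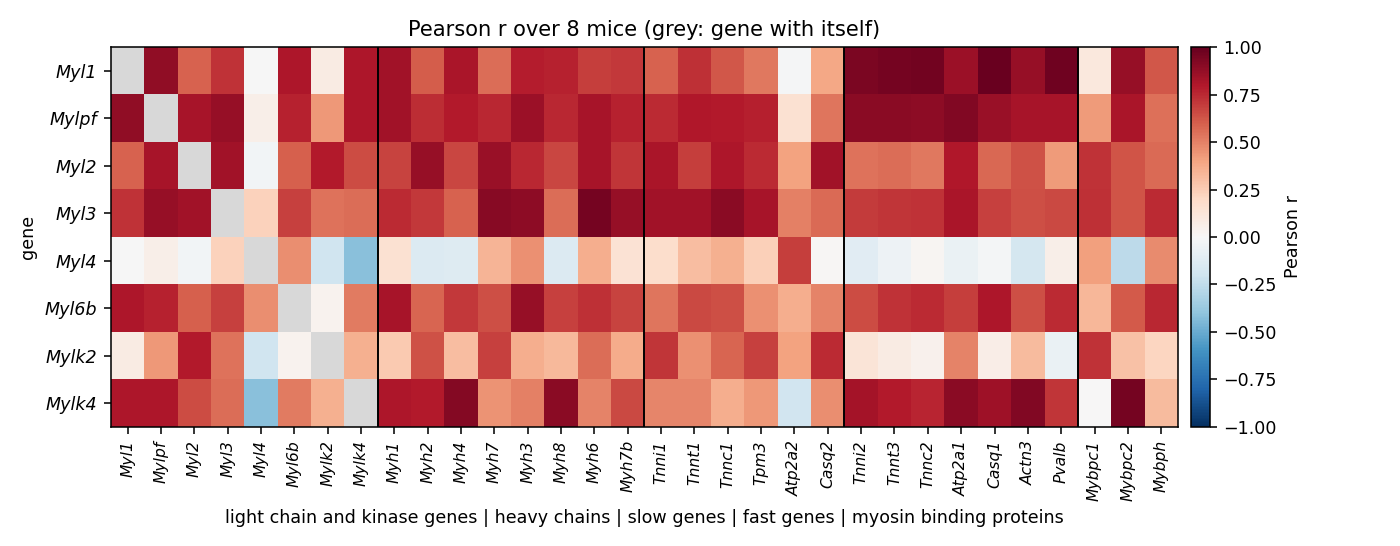
Pearson's r over 8 mice (colour) of each of the 8 genes in rows with the same 8 genes, the heavy chains, the slow genes, the fast genes and the myosin binding proteins in columns. Over the fast genes the rows of Myl1, Mylpf and Mylk4 are the darkest red, over the slow genes those of Myl3, Myl2 and Mylpf, and the row of Myl4 is pale over most columns.

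Among other light chain genes, 6 entries passed the filter (Myl6, Myl9, Myl10, Myl12a and 2 entries for Myl12b), and none had r above 0 past the unadjusted threshold with any of the 8 genes. Mylk4 had 3 of 6 with r below 0, with Myl12a, a nonmuscle regulatory chain, at -0.79 (exact p = 0.015) and the Myl12b entries at -0.77 and -0.76, against 8.18% of all genes. The gene span of 1 of these Myl12b entries overlaps those of the other entry and of Myl12a on the same strand, and whether they share reads was not tested. Myl4 had 1 of 6 below 0, Myl9, the regulatory chain of smooth muscle, at -0.81 (exact p = 0.015), against 1.43% of all genes. Spearman's coefficient was -0.88 for Myl12a (exact p = 0.0072) and -0.90 for Myl9 (exact p = 0.0046), and r without the 2 farthest mice was -0.79 and -0.78.

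Of the other kinase, calmodulin and phosphatase genes, 10 passed the filter and Mylk3, the heart kinase gene, did not, with at most 8 reads in any library. With r above 0, 4 of 10 lay past the unadjusted threshold for Mylk4, against 6.00% of all genes, namely Rock1 (0.86, exact p = 0.0092) and Rock2 (0.79, exact p = 0.020), kinases that inhibit the phosphatase, and the calmodulin genes Calm2 (0.81, exact p = 0.021) and Calm3 (0.78, exact p = 0.034). For Mylk2 it was 1 of 10, against 1.55% of all genes, Ppp1r12b, which encodes the muscle form of the phosphatase targeting subunit (0.73, exact p = 0.035, -0.19 without mice 1 and 5). Calmodulin genes had r of -0.12, -0.10 and -0.08 with Mylk2. Myl1 had 2 of 10, Calm3 at 0.83 and Calm2 at 0.78, against 8.07% of all genes. Myl4 had 1 of 10 below 0, against 1.43% of all genes, the smooth muscle kinase gene Mylk at -0.74 (exact p = 0.046). Of the 3 myosin binding protein genes, Mybpc1, Mybpc2 and Mybph, 2 lay past the unadjusted threshold with r above 0 for Myl3, 0 for Myl4 and 1 for each of the other 6 genes, against 0.873% to 8.07% of all genes. For Myl1 (0.87) and Mylpf (0.82) this was Mybpc2, for Myl6b it was Mybph (0.76), for Myl2 it was Mybpc1 (0.72), and for Myl3 it was Mybph (0.74) and Mybpc1 (0.73). The fast form Mybpc2 followed Mylk4 at 0.96 (exact p = 0.00055, 0.90 without mice 3 and 4, rho = 0.93, exact p = 0.0022) and the slow form Mybpc1 followed it at 0.00, whereas with Mylk2 the values were 0.29 for Mybpc2 and 0.72 for Mybpc1 (exact p = 0.042).

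Some markers of other cell types lay past the unadjusted threshold with the light chain and kinase genes. Cd68, a macrophage gene, had r = -0.96 with Mylk4 (exact p = 0.00062, -0.93 without mice 3 and 4, rho = -0.95, exact p = 0.0011, limma adjusted p = 0.017), -0.77 with Myl1 and -0.77 with Mylpf. The 5 macrophage markers summed to 1138 to 2819 normalized counts, and Cd68 was the only one of 5 past the unadjusted threshold for each of these genes, against 8.18%, 7.05% and 4.86% of all genes below 0 with Mylk4, Myl1 and Mylpf. With Myl4, r was below 0 at an unadjusted exact p under 0.05 for 3 of 5 smooth muscle markers (sum 2402 to 4062), 2 of 4 endothelial markers (3020 to 4679) and 1 of 4 adipocyte markers (2975 to 4812), against 1.43% of all genes, and the lowest was Fabp4 at -0.92 (exact p = 0.0010, rho = -0.95, exact p = 0.0011, -0.88 without mice 2 and 3). The 5 regenerating or denervated fibre genes tested also went both ways. Myog, a transcription factor of muscle differentiation that rises after denervation, had r = 0.83 with Myl4 (exact p = 0.018, 0.56 without mice 2 and 3), the only 1 of 5 past the threshold for that gene, against 0.873% of all genes above 0. Runx1 had r = -0.91 with Myl2 (exact p = 0.0027, -0.72 without mice 1 and 4), -0.74 with Mylk4 (exact p = 0.035) and -0.72 with Mylk2 (exact p = 0.044), and Ncam1, a cell adhesion gene, had r = -0.71 with Mylk4 (exact p = 0.0497). On the other side, the developmental heavy chain gene Myh3 had r = 0.75 with Myl2 (exact p = 0.032) and 0.89 with Myl3 (exact p = 0.0033), and Myh8 lay above 0 with Mylk4, as given above. For Myl1 and Mylpf, 2 of 5 were past the threshold, Myh3 and Myh8, both above 0, against 8.07% and 4.87% of all genes. Whether reads of Myh4 were counted on Myh8 was not tested. The 3 satellite cell markers did not share a direction. Cdh15, a cadherin of these cells, had r = -0.90 with Myl1 (exact p = 0.0025), -0.88 with Mylpf (exact p = 0.0038) and -0.78 with Mylk4 (exact p = 0.027). Pax7, their defining transcription factor gene, had r of 0.61 with Myl1 (exact p = 0.11), 0.68 with Mylpf (exact p = 0.060) and 0.77 with Mylk4 (exact p = 0.027), and Myf5 lay past the threshold with none of the 8 genes. None of the 5 fibroblast or 5 Schwann cell markers lay past the threshold with any of the 8 genes. The part of these cells in the relations was not tested.

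The gene whose log2 level was most like each member over the 8 mice, among genes averaging 50 normalized counts or more, was Mylf-ps for Myl1 (r = 0.995), followed by Trdn, which encodes triadin of the calcium release unit, at 0.995 and Casq1 at 0.988. For Mylpf it was Hccs (0.976), and Mir7225 had an r of 0.953. Grsf1 (0.957), Pfkm (0.946) and Fam118b (0.943) were nearest to Myl2, and Pdha1 (0.975), Aldoart1 (0.973) and Mdh1 (0.967) to Myl3. Pfkm encodes muscle phosphofructokinase, and Pdha1 and Mdh1 encode enzymes of pyruvate and malate oxidation. Acin1 (0.957), Cfap20 (0.944) and Gm9844 (0.909) were nearest to Myl4, and Hmgb3 (0.956), Fkbp2 (0.946) and Serbp1 (0.916) to Myl6b. The kinases shared no name, with Llgl2 (0.918), Fzd7 (0.902) and Zfp317 (0.893) for Mylk2 and Gm14698 (0.979), Six2 (0.974) and Ccdc6 (0.971) for Mylk4. These are extremes over many genes, from 8 mice each, given without a test. A symbol such as Mir7225 counts reads of the poly-adenylated library at that locus and is no measure of a mature miRNA.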

How the data were processed

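Poly-adenylated RNA of 8 mice was sequenced as mRNA-seq libraries, 1 per mouse. The submitters' processing notes name FastQC, fastp, STAR and GRCm38.p6. The authors counted reads per gene and normalized them with DESeq2, and the deposited signal is each count divided by 1 size factor per library (0.906 to 1.20). All nonzero values (100%) were whole multiples of 1 step per library, within 0.01 of a read, so counts were recovered for depth, filters and other scalings. The annotation release, use of strand and handling of multiply mapped reads are not given in the sources used here.

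Symbols, positions and exon lengths came from GENCODE release M21 (55227 of 55487 identifiers). Relations used log2(deposited value + 1) over 16498 genes with a mean of at least 10 counts, exact permutation tests over every pairing of the mice and Benjamini-Hochberg adjustment over all genes and members. Levels were compared by exact sign-flip tests over 256 patterns. Only 1 condition was analysed, so no difference between groups was tested. The labels number the libraries as replicates of 1 group, and p-values measure the spread between these 8 libraries. The 8 genes and all lists were chosen with earlier results of these data known. Named genes were the 8 members, the listed pathway and marker genes, and the 3 genes with a symbol nearest each member in r; genes of marker lists were named after their values were seen. For Mylpf, 1 of the 3 nearest genes is not reported here. Promoter windows came from RefSeq (GRCm38.p6), with an entry for 7 of the 8 genes; Mylk2 is named only. Alternatives were edgeR TMM factors, library totals, a pseudocount of 5, at least 10 counts in every library or no filter, removal of GC content and length trends, Spearman correlation, limma, longest transcripts, medians, shares per kb and leaving out each mouse; adding Mylf-ps to Myl1, alone or with longest transcripts, was chosen after seeing the data. Scripts were tested on simulated data. The versions were R 4.3.3 with limma 3.58.1 and edgeR 4.0.16, and Python 3.11.15 with pandas 2.3.3, scipy 1.17.1, matplotlib 3.10.9 and numpy 2.4.6.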

Additional observations from a re-analysis of the deposited data

Results flagged for a closer look

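Among 52 values of the 8 genes, their pathway genes and shares, 1 mouse stood far from the others in 1 case, where chance gives about 1 in 20 and so 2.6. The catalytic myosin phosphatase gene Ppp1cb had 18177 normalized counts in mouse 5 and 12743 to 15300 in the other 7 mice, and the gap took 0.529 of the range against a critical value of 0.526. None of the 8 light chain and kinase genes had a mouse past that value.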

How the results depend on the processing

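No paired analysis was possible because the mice were of 1 condition. Of 28 pairs, 10 lay past the unadjusted threshold, 4 with library totals, 5 with Spearman correlation and 6 to 12 when 1 mouse was left out (6 without mouse 3 and without mouse 4). Over all genes, relations past the adjusted threshold were 0 by the exact test on all 8 mice and with each mouse left out. The exact p cannot go below 2.48e-05 with 8 mice, and its floor is higher when 1 mouse is left out. A call over 131976 relations needs many relations at or near that floor. These 0 counts therefore cannot show whether leaving out a mouse changed the result. By limma 51 relations passed (34 with Myl1, 13 with Mylk4, 2 with Mylpf, 1 with Myl3 and 1 with Mylk2). Unadjusted, 10368 became 6259 (without mouse 4) to 12103 when 1 mouse was left out. The order by level had 7 of 7 neighbours past the threshold, 6 of 7 with the longest transcripts (Mylk2 over Mylk4 0.10, exact p = 0.64), 5 of 7 when Mylf-ps was also added to Myl1 (Mylpf over Myl1 0.035, exact p = 0.65), 6 to 7 with 1 mouse left out, and 0 by medians, whose smallest sign-flip p of 0.0625 cannot pass. The CV of Mylpf was 12.3% with library totals. Shares per kb were 1.03% for Myl2, 0.245% for Myh7 and 0.187% for Tnni1. The sign of r reversed with library totals for Myl1 with Mylk2 (-0.43), Mylpf with Myl4 (-0.012), Myl6b with Mylk2 (-0.35) and Mylk2 with Mylk4 (-0.15), after removal of GC content and length trends for Myl1 with Myl4 (0.029), and with Spearman's rho for Myl2 with Myl4 (0.10) and Myl6b with Mylk2 (-0.19). When 1 mouse was left out, r went from -0.42 to 0.37 for Myl1 with Myl4, -0.17 to 0.28 for Myl1 with Mylk2, -0.30 to 0.39 for Myl2 with Myl4, -0.44 to 0.41 for Mylpf with Myl4, -0.087 to 0.49 for Myl3 with Myl4 and -0.13 to 0.17 for Myl6b with Mylk2. None of these pairs had lain past the unadjusted threshold, and the cause was not tested. The other 245 of 252 pair values under alternatives on all 8 mice, and 210 of 224 with 1 mouse left out, did not reverse, among them Myl1 with Mylk2, whose rho was 0. Some of the 252 values could not reverse. The limma slope keeps the sign of r, the changes of filter leave the values of the 8 genes unchanged, and adding Mylf-ps changes only pairs with Myl1. Depth limits Myl6b most, at 65 to 111 reads.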
